A study of Oryza sativa with 8 samples.

Results

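Abscisic acid (ABA) is the plant hormone of drought and osmotic stress, and the genes described here encode the transcription factors at the end of its signalling chain. When ABA binds PYL receptors, these hold back clade A PP2C phosphatases, and the SnRK2 kinases that the phosphatases otherwise keep inactive are released. The kinases phosphorylate bZIP factors of the ABF type, which bind ABA-responsive elements in the promoters of genes for late embryogenesis abundant (LEA) proteins and other protectants. In rice, OsbZIP23 is a positive regulator of ABA responses and drought tolerance, OsbZIP46 carries a domain that represses its own activity until it is activated, OsbZIP72 binds ABA-responsive elements, and TRAB1 was found as a partner of the seed regulator VP1.

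The 6 loci were chosen by their identifiers in release 7 of the Michigan State University (MSU) rice annotation, out of 55986 genes listed. They were OsbZIP23 (LOC_Os02g52780, chromosome 2), OsbZIP46 (LOC_Os06g10880, chromosome 6), OsbZIP72 (LOC_Os09g28310, chromosome 9), TRAB1 (LOC_Os08g36790, chromosome 8), OsbZIP12 (LOC_Os01g64730, chromosome 1) and a locus called OsABI5 here (LOC_Os01g64000, chromosome 1). Names in this family are not used uniformly. The gene table of the study lists LOC_Os01g64730, the OsbZIP12 of this text, under OsABI5 among other names, so the locus identifiers decide which gene is meant.

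The data were bulk 3′ RNA-seq libraries from rice roots, made to ask which genes change when roots are turned into protoplasts, a step that single-cell sequencing of plant tissue often requires. The 8 samples were 4 of intact and 4 of digested roots, and in the latter a cell wall degrading enzyme mix had left protoplasts together with undigested pieces. Both groups were Xkitaake, the cultivar Kitaake carrying the XA21 immune receptor gene under the maize ubiquitin promoter, which the labels call wild type, so neither group lacks that transgene. All seedlings grew in gellan gum with Yoshida's nutrient solution, for 1 to 3 days in a chamber at 28 °C per the labels, and the intact roots were harvested straight from the gel. The groups therefore differ in the whole protoplasting procedure, not in the enzymes alone. The labels do not say whether the 4 samples of a group came from separate plants or cultures, so the p-values measure only the spread between these samples.

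The libraries differed in depth along with the group. Intact libraries held 2333236 to 3595349 gene counts and digested libraries 115006 to 471019, with medians 12.5-fold apart (exact permutation test, two-sided, p = 0.0286, the smallest that 4 against 4 allows). Levels are given as CPM, the usual scaling of counts to a common library total. One count was worth 0.249 to 0.407 CPM for intact and 2.46 to 9.29 CPM for digested roots, and a gene at 0 counts could have a level of up to 3 counts, or 7.37 to 27.9 CPM, in a digested library. Reads that mapped to more than 1 place made up 3.93 to 5.36% of intact and 13.0 to 24.3% of digested libraries. The part of this difference in the results was not tested. A fit with intact counts thinned to the digested totals, given near the end, bears on depth alone. Of 13104 genes with enough counts, 38.5% passed edgeR's quasi-likelihood test at an adjusted p under 0.05, 20.0% higher and 18.5% lower in digested roots, so a call by itself sets no gene apart.

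Across the family, digestion went with more OsbZIP23 and OsbZIP12 RNA and, on a single digested count, less OsbZIP46 RNA. Of the 6 factors, 2 rose, 1 fell, 2 were tested and not called, and 1 had too few counts to test. The 4 digested values of OsbZIP23 and OsbZIP12 lay above, and those of OsbZIP46 below, all 4 intact values, where 17.4% of tested genes had digested values above and 19.8% below the intact range (37.2% together). OsbZIP23 rose 4.27-fold and OsbZIP12 3.67-fold, while OsbZIP46 went from 135 counts over the intact libraries to a single count over the digested ones. OsbZIP46 passed the filter on low counts only through the intact libraries, and a count of 0 in a shallow digested library separates little. When a log2 fold change of 2 or more in either direction was asked as well, OsbZIP23 and OsbZIP46 passed and OsbZIP12 did not, and 16.9% of tested genes passed. The median log2 fold change of the 5 tested factors was 0.22, beside -0.06 for all tested genes.

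**Figure D1:**
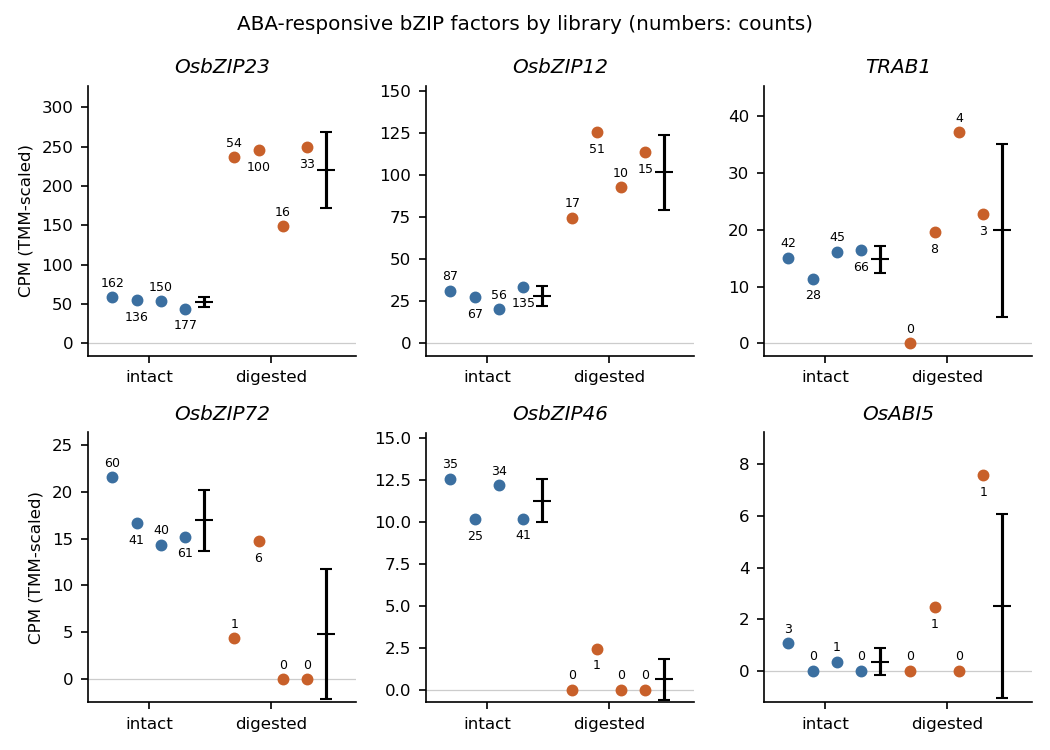
Level of each factor in every library, in CPM scaled by the trimmed mean of M-values (TMM), with intact roots in blue and digested roots in orange (4 libraries each, linear axes that differ between panels). Numbers are counts and black bars are the mean ± SD. The digested points of OsbZIP23 and OsbZIP12 lie above all intact points, and those of OsbZIP46, with 1 count in all, below them.

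In intact roots OsbZIP23 was the most abundant of the 6. Its level was 58.3, 55.3, 53.8 and 44.1 CPM in intact replicates 1 to 4 (52.9 ± 6.12, SD, n = 4), from 162, 136, 150 and 177 counts. Each count of these libraries stands for 1 transcript end, so CPM were compared between genes without division by length. OsbZIP12 came next at 31.3, 27.3, 20.1 and 33.7 CPM (28.1 ± 5.94), below every OsbZIP23 value. OsbZIP72 had 17.0 ± 3.23 CPM, TRAB1 14.8 ± 2.33 CPM and OsbZIP46 11.3 ± 1.28 CPM. The ranges of OsbZIP12 and OsbZIP72 overlapped, as did those of OsbZIP72 and TRAB1 and of TRAB1 and OsbZIP46, so the order of these neighbours was not separated by the libraries. OsABI5, named after the Arabidopsis regulator of ABA responses in seeds, had 3, 0, 1 and 0 counts in intact replicates 1 to 4 and stood clear below the other 5.

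In digested roots OsbZIP23 stayed at the top. Its level was 237, 246, 149 and 250 CPM in digested replicates 1 to 4 (220 ± 48.0, SD, n = 4), from 54, 100, 16 and 33 counts. The lowest digested library was still above the highest intact library. The log2 fold change was 2.10 ± 0.21 (SE; edgeR quasi-likelihood test, Benjamini-Hochberg adjusted p = 2.17e-09). The ratio of summed counts, scaled by library size, gave a log2 value of 2.16 with a 95% counting interval of 1.92 to 2.39. Replicate 3, the shallowest library with 16 counts for this gene, was the one that stood lower than the other 3 digested libraries.

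OsbZIP12 showed a rise of much the same size. In digested replicates 1 to 4 it had 74.5, 125, 92.9 and 114 CPM (102 ± 22.5, SD, n = 4), from 17, 51, 10 and 15 counts, against 87, 67, 56 and 135 counts in the deeper intact libraries. Again no digested value reached down to the intact range. The log2 fold change was 1.88 ± 0.25 (SE; edgeR, adjusted p = 7.35e-07), and the summed counts gave 1.89 with a counting interval of 1.55 to 2.23. Whether the changes of OsbZIP12 and OsbZIP23 differ in size was not tested by a model. Within a library, the counts of OsbZIP23 were 1.31 to 2.68 times those of OsbZIP12 where roots were intact and 1.60 to 3.18 times where they were digested, and these ranges overlapped. OsbZIP23 ranked first and OsbZIP12 second in all 8 libraries.

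OsbZIP46 moved the other way. It had 12.6, 10.2, 12.2 and 10.2 CPM in intact replicates 1 to 4, from 35, 25, 34 and 41 counts, and 0, 2.46, 0 and 0 CPM in digested replicates 1 to 4. The only digested count lay in replicate 2, the deepest digested library. No digested library reached the intact range, yet in replicates 1, 3 and 4 the intact level was worth fewer than 3 counts, so a count of 0 in any of them separates little. Taken over the 4 digested libraries, 9.81 counts would be expected at the intact level and 1 was seen. The log2 fold change was -3.22 ± 0.90 (SE; edgeR, adjusted p = 0.00540), and the summed counts gave -3.29 with a wide counting interval of -8.61 to -0.79. That interval lies below 0 but spans a wide range of sizes, and the gene passed the filter on low counts only through the intact libraries. When an intact library was left out and the filter applied anew, OsbZIP46 was no longer among the tested genes. Only 8689 to 8805 genes passed the filter then, beside 13104 in the full fit, so this loss was not particular to OsbZIP46. With the tested genes kept, its log2 fold change was -3.26 to -3.16. The fitted size was -1.72 with limma-voom and -7.35 without digested replicate 2, when no digested count is left and the value is no bound.

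OsbZIP72 was not called. Its intact levels were 21.6, 16.7, 14.4 and 15.2 CPM, from 60, 41, 40 and 61 counts, and its digested levels were 4.38, 14.7, 0 and 0 CPM, from 1, 6, 0 and 0 counts. The value of digested replicate 2 lay inside the intact range, so the groups overlapped. The log2 fold change was -1.11 ± 0.56 (SE; edgeR, adjusted p = 0.124). The summed counts, 7 against 14.7 expected at the intact level, gave -1.07 with a counting interval of -2.40 to 0.0012. The call changed with the scaling, the test and 1 library. It was past the threshold in edgeR with unscaled library totals (log2 fold change -1.43, adjusted p = 0.0360), with upper-quartile factors (-1.39, adjusted p = 0.0413) and without digested replicate 2 (-3.11, adjusted p = 0.0154), and in limma-voom (-1.31, adjusted p = 0.0241). Without digested replicate 2 only 1 digested count is left, so that value rests on a single read. Like OsbZIP46, the gene passed the filter on low counts only through the intact libraries. Over its 19 alternatives the adjusted p ran from 0.0154 to 0.353.

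TRAB1 did not separate the groups. It had 15.1, 11.4, 16.1 and 16.5 CPM in intact replicates 1 to 4, from 42, 28, 45 and 66 counts, and 0, 19.7, 37.2 and 22.7 CPM in digested replicates 1 to 4, from 0, 8, 4 and 3 counts. Of the digested libraries 3 were above the intact range and 1 was at 0. The log2 fold change was 0.22 ± 0.49 (SE; edgeR, adjusted p = 0.768), and its sign changed with the scaling, to -0.10 with unscaled library totals. The summed counts gave 0.19 with a counting interval of -0.68 to 0.95, so a rise or a fall within those bounds was not detectable at this depth. OsABI5, with 0, 1, 0 and 1 counts in digested replicates 1 to 4, was below the filter. In a fit with no filter its log2 fold change was 2.4 ± 1.47 (SE; edgeR, adjusted p = 0.259), and the counting interval ran from -0.68 to 5.59.

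**Figure D2:**
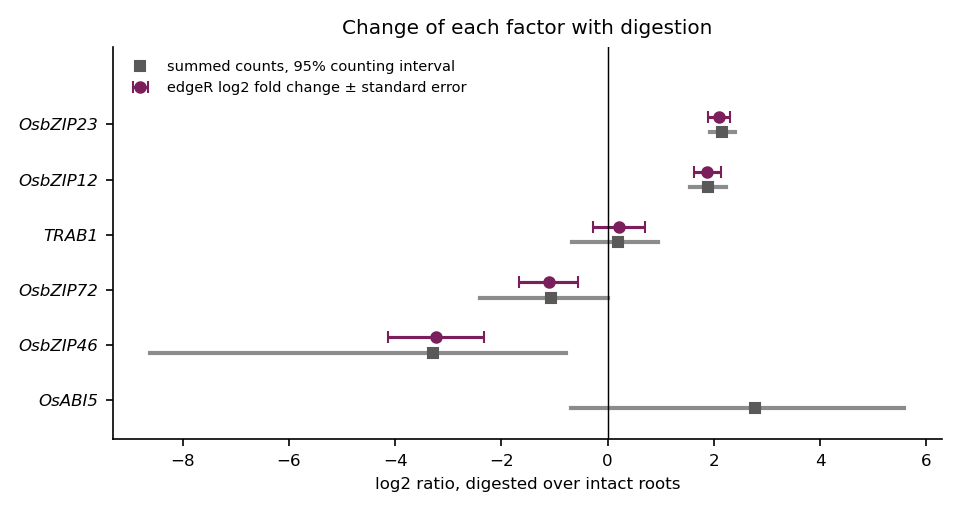
Change of each factor on the log2 scale, digested over intact roots (4 libraries each). Circles with bars are the edgeR log2 fold change ± SE for the 5 tested genes. Squares with grey lines are ratios of summed counts with 95% counting intervals for all 6. The intervals of OsbZIP23 and OsbZIP12 lie above 0 and that of OsbZIP46 below 0. Those of TRAB1 and OsABI5 span 0, as does that of OsbZIP72, whose upper end is only just above 0 (0.0012).

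The make-up of the family shifted as well as its level. OsbZIP23 held 36.9 to 46.0% of the summed counts of the 6 genes when roots were intact, and 53.3 to 75.0% after digestion, with no overlap. OsbZIP12 held 17.2 to 28.1% and 23.6 to 33.3%, which overlapped. OsbZIP72 went from 12.3 to 15.4% in intact libraries to between 0 and 3.59% in digested ones, also with no overlap, although its level in CPM overlapped. Shares of 1 total are tied to each other, so a larger share of OsbZIP23 makes the others smaller by construction. They rest on 297 to 480 counts per intact library and 30 to 167 per digested library, and they do not depend on the scaling between libraries.

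OsbZIP46 held 8.42 to 10.4% in intact libraries and 0.599% in digested replicate 2, where 1 of 167 counts gives an exact 95% binomial interval of 0.0152 to 3.29%. Its share was 0 in the other 3 digested libraries. TRAB1 held 9.43 to 13.8% without and 0 to 13.3% with digestion. The summed level of the 6 genes was 117 to 140 CPM without and 279 to 410 CPM with digestion, a 2.81-fold difference of the means. Without OsbZIP23 the sums were 63.1 to 81.6 and 78.9 to 165 CPM, and these ranges overlapped.

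**Figure D3:**
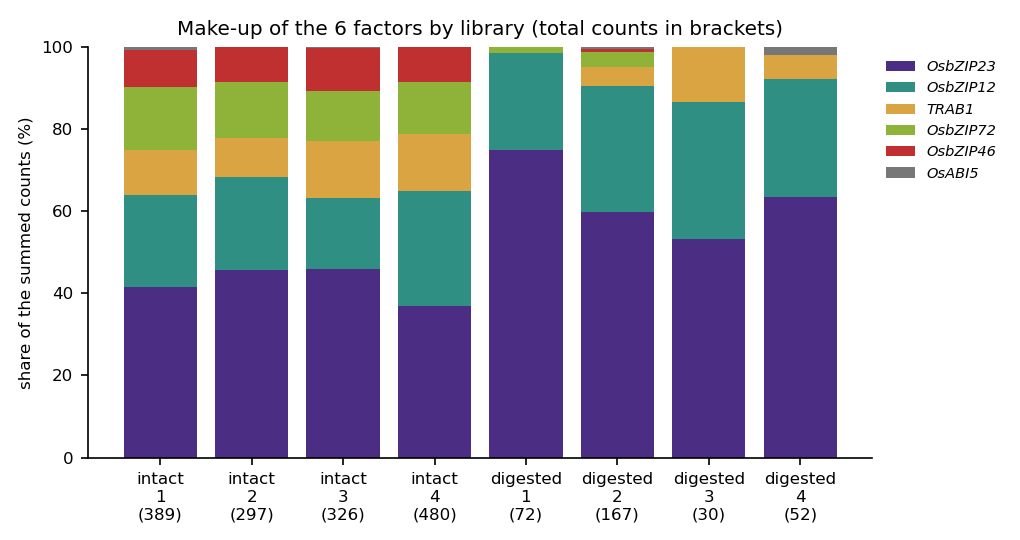
Share of each factor in the summed counts of the 6 genes, in percent, for each of the 8 libraries, with the total counts in brackets. OsbZIP23 takes 36.9 to 46.0% of each intact and 53.3 to 75.0% of each digested library, and OsbZIP72 takes at most 3.59% of a digested one.

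In digested roots the order below OsbZIP12 was not settled. OsbZIP12 lay above every TRAB1 value, while TRAB1 (19.9 ± 15.3 CPM, SD, n = 4), OsbZIP72 (4.78 ± 6.96), OsABI5 (2.51 ± 3.57) and OsbZIP46 (0.614 ± 1.23) overlapped with their neighbours. All 6 factors had at least 1 count in 2 of the intact libraries and in digested replicate 2, and only 3 of them had any in digested replicates 1 and 3.

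Some other genes had profiles across the 8 libraries close to those of the factors. Among 202 tested genes of the gene table of the study, likeness was measured as the root mean square difference of gene-centred log2 CPM. OsEIL2, of the EIN3-like family of ethylene signalling, was nearest to OsbZIP23 (0.18, beside a median of 1.68 over the 202 genes), followed by the ABA receptor gene OsPYL11 (0.20). OsABI2, a PP2C gene, was nearest to OsbZIP12 (0.30), with OsEIL2 next (0.32). For OsbZIP46 they were NST1 (0.28) and OsARF5 (0.32), and for OsbZIP72 OsARF18 (0.23) and the cell wall list gene named CYP (0.40). The nearest to TRAB1 were less close, OsPP2C53 at 0.67 and CCR7 at 0.72. TRAB1 had 15 counts over the digested libraries, so counting error also enters these distances. OsbZIP46 and OsbZIP72 had 1 and 7 counts over the digested libraries, so their profiles there rest on few reads. NST1 and OsARF5 had the same digested mean as OsbZIP46, 0.614 CPM. Their likeness to it in digested roots is therefore one of genes with next to no counts.

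The rest of the ABA pathway was taken from the gene table of the study as 6 lists with 66 genes in all. Of these, 36 had enough counts for the test, and 22 rose and 5 fell, with a median log2 fold change of 1.76, while 20.0% of all tested genes rose and 18.5% fell. A low gene can enter the test through the group in which it is high, so these counts describe the tested genes only. Both further bZIP factors of the table gave no call. OsbZIP71 had 118 ± 13.8 CPM without and 92.2 ± 10.2 CPM with digestion (log2 fold change -0.33 ± 0.22, adjusted p = 0.249), although its digested values all lay below the intact ones. OsbZIP60, a factor of the unfolded protein response, had 16.5 ± 3.79 and 17.6 ± 16.2 CPM (log2 fold change 0.48 ± 0.44, adjusted p = 0.417).

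Among genes of ABA synthesis, 5 of 18 rose, 1 fell, 1 was not called and 11 were not tested. OsNCED4, for an enzyme that cleaves carotenoids on the way to ABA, went from 1 count over the intact to 56 counts over the digested libraries (ratio of summed counts 9.59 on the log2 scale, 95% counting interval 7.05 to 14.9). OsNCED3 rose from 2.59 ± 0.966 to 38.4 ± 15.5 CPM (ratio of summed counts 3.65 on the log2 scale, counting interval 2.88 to 4.40). OsAO3, an aldehyde oxidase gene, fell from 103 ± 19.2 to 10.4 ± 7.71 CPM (log2 fold change -3.18 ± 0.40, adjusted p = 2.21e-07). Of 3 genes of ABA breakdown only OsABA8ox1, for an ABA hydroxylase, was tested, and it rose from 11.0 ± 1.31 to 93.4 ± 27.1 CPM (log2 fold change 3.12 ± 0.27, adjusted p = 2.08e-10).

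Upstream of the factors, the receptor genes moved in both directions. Of 13 PYL genes, 5 were tested, of which 1 rose, 2 fell and 2 were not called. OsPYL11 rose from 53.0 ± 5.66 to 198 ± 43.0 CPM (log2 fold change 1.93 ± 0.21, adjusted p = 1.11e-08), while OsPYL6 fell from 86.7 ± 13.0 to 24.3 ± 8.86 CPM (-1.98 ± 0.32, adjusted p = 9.22e-06). OsPYL5 had 178 intact counts and 1 digested count (ratio of summed counts -3.69 on the log2 scale, counting interval -9.00 to -1.20). Of 9 PP2C genes, whose products restrain the kinases that act on the factors, 5 rose, 2 were not called and 2 were not tested. OsSIPP2C1 rose from 3.46 ± 1.50 to 169.8 ± 71.8 CPM (ratio of summed counts 5.88 on the log2 scale, counting interval 5.39 to 6.41). OsABI2 rose from 35.0 ± 5.84 to 137 ± 43.0 CPM (log2 fold change 1.96 ± 0.24, adjusted p = 1.13e-07).

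Downstream, 21 genes were listed for the response to ABA or water stress. Of these, 10 rose, 2 fell, 2 were not called and 7 were not tested. The median log2 fold change was 6.23 over the 14 tested, beside -0.06 for all tested genes. Low genes such as OsRAB16C, with 3 intact and 225 digested counts, entered that median through the digested group. Genes that were not tested are left out of it. The study drew up this list with its own stress data in view, so it is no independent sample of target genes. WSI18, a LEA protein gene, had 8 counts over the intact and 206 over the digested libraries (ratio of summed counts 8.47 on the log2 scale, counting interval 7.46 to 9.70). LOC_Os10g21790, listed without a symbol, had 8 and 189 counts (8.35, counting interval 7.34 to 9.58). OsASR5, of the ABA, stress and ripening family, fell from 2055 ± 284 to 1174 ± 196 CPM (log2 fold change -0.81 ± 0.16, adjusted p = 0.000190). OsDi19-5, for a drought-induced type of zinc finger protein, fell from 61.0 ± 7.45 to 25.8 ± 7.20 CPM (-1.16 ± 0.30, adjusted p = 0.00284). Adjusted p-values of the pathway genes are from edgeR's quasi-likelihood test over all 13104 tested genes.

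**Figure D4:**
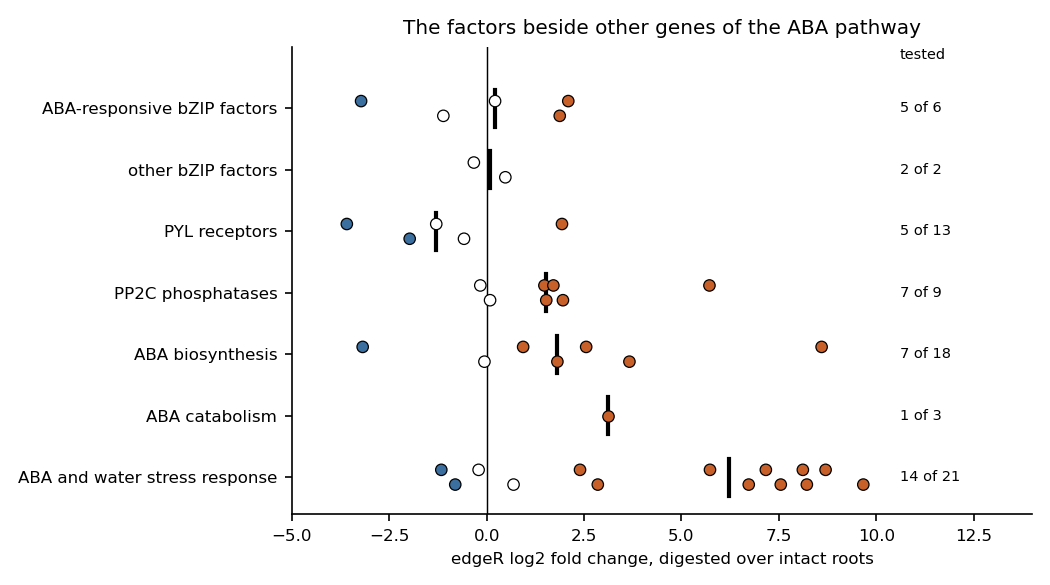
The edgeR log2 fold change, digested over intact roots (4 libraries each), of the tested genes among the bZIP factors and the 6 other ABA lists, with the number tested of the number listed at the right. Orange circles rose, blue circles fell, open circles were not called, and vertical bars are medians; the bZIP factors spread from -3.22 to 2.10, while 10 of the 14 tested stress response genes rose.

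Markers of root cell types also moved with the group, which bears on factors that may be made in particular cells. Of 58 markers in the marker list of the study, all had counts in intact and 52 in digested roots. A count above 0 is a weak demand and no other tissue was compared, so this does not test the label root. Of 47 tested, 28 were lower and 1 was higher in digested roots, beside 18.5% lower and 20.0% higher of all tested genes. Summed marker levels without and with digestion were 496 to 659 and 83.3 to 195 CPM for trichoblasts, 491 to 762 and 114 to 295 CPM for vascular tissue, 540 to 787 and 193 to 316 CPM for xylem, 684 to 1031 and 372 to 666 CPM for cortex, 48.9 to 75.7 and 8.77 to 22.7 CPM for sclerenchyma, and 330 to 499.9 and 140 to 275 CPM for the root cap, none of which overlapped. The single epidermis marker was also lower without overlap (30.2 to 41.1 and 0 to 19.7 CPM), as were 19.8% of all tested genes. Sums overlapped for meristem (283 to 397 and 270 to 427 CPM), endodermis, exodermis, atrichoblasts and phloem. The 6 markers at 0 in all digested libraries were OsGELP9, Os03g0134800 and RHL1 of trichoblasts, UGT of the exodermis, and Os06g0664800 and OsAAP11G of the phloem, with 2 to 53 intact counts. The shallower digested libraries would hold few counts of such genes even at the intact level, so a 0 need not mean a lower level. The part of these shifts in the lower OsbZIP46 level and in the higher OsbZIP23 and OsbZIP12 levels was not tested. In bulk RNA, fewer cells of a type and less RNA per cell cannot be told apart.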

How the data were processed

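Whole-number counts per gene were deposited for each library. The authors made them from QuantSeq 3′ libraries with unique molecular identifiers, and the submitters' processing notes name STAR, UMI-tools, HTSeq and edgeR without versions. Reads were aligned to release 7 of the MSU rice genome. The strand setting of the counting is not given in the sources used here, and reads mapping to several places were not counted to genes, so near-identical copies are uncertain. The 5 HTSeq summary lines (17.2 to 19.3% of reads in intact and 27.7 to 37.8% in digested libraries) were left out. No columns of authors' comparisons were used.

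Counts of all 8 libraries entered 1 edgeR 4.0.16 fit (R 4.3.3, limma 3.58.1): filterByExpr by group, TMM factors, robust quasi-likelihood, Benjamini-Hochberg adjustment over 13104 tested genes, threshold 0.05. SEs were derived from the fitted change and its F statistic. CPM were computed with the TMM-scaled library sizes. Counting intervals are exact binomial (Clopper-Pearson, 95%) and, like the limit of 3 counts for a 0, cover counting error only. Replicates of a group differed by more than counting noise (chi-square over its degrees of freedom, 1.72 to 7.65 in 12 pairs), so none was merged.

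All 6 factors are described. Of each ABA list, up to 2 genes per direction were named, those with the smallest adjusted p among genes with a mean of at least 5 CPM, plus both other bZIP factors and, for each tested factor, the 2 nearest profiles. The factors and lists were chosen with earlier results of these data known. Alternatives were DESeq2 1.42.0, limma-voom, other scalings and filters, a prior count of 2, a threshold of 0.01, a replicate block, intact counts thinned to the digested totals, and leaving out libraries. RefSeq gene names matched 2 of the 6 factors and no locus identifier. Counts were also simulated at these depths, with 200 genes changed and the same spread set for every gene. Of 191 tested changed genes, 112 were called in the right direction, and 4 unchanged genes were called. The real libraries differ from those settings, so this gives no error rate for them.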

Additional observations from a re-analysis of the deposited data

Results flagged for a closer look

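Of 52 groups of 4 libraries examined, 6 had 1 library far from the other 3. The number to set beside it, about 2.6 by chance, holds for continuous and independent values, which these are not. A single count beside 0 in the other 3 libraries is always flagged, and OsbZIP46 enters through both its level and its share. The 2 numbers are therefore not comparable. OsbZIP23 had 148.7 CPM in digested replicate 3 and 236.7 to 249.9 CPM in the other digested libraries. OsbZIP46 had 2.458 CPM, and 0.5988% of the summed counts of the 6 factors, in digested replicate 2 and 0 in the other 3, which is a single count. The summed level of the 6 factors was 139.9 CPM in intact replicate 1 and 117.0 to 120.8 CPM in the other intact libraries. OsNCED4 had 0.2493 CPM in intact replicate 4 and OsPYL5 had 7.573 CPM in digested replicate 4, each a single count with 0 in the other 3 libraries of the group.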

How the results depend on the processing

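OsbZIP23 and OsbZIP12 were called higher in each of 24 alternatives, with log2 fold changes of 1.79 to 2.15 and 1.52 to 2.11 and adjusted p-values (edgeR, DESeq2 or limma) of 2.01e-23 to 1.26e-06 and 5.62e-10 to 0.000496. OsbZIP46 was called lower in each of the 19 that tested it (-7.35 to -1.72, adjusted p 0.00154 to 0.0246). Those 19 all rest on the same single digested count or on none, and the other alternatives left the gene out of the test. A second factor, OsbZIP72, was called lower (making 2) with unscaled library totals, upper-quartile factors and limma-voom, at -1.43, -1.39 and -1.31, where TRAB1 had -0.10, -0.057 and -0.062. None was called lower with intact counts thinned to the digested totals, which left 2 factors tested and gave a change of -11.4 percentage points in the OsbZIP46 share. The 2 tested were OsbZIP23 and OsbZIP12, at 1.90 and 2.11. Without the 2 shallowest digested libraries, a choice made after the totals were seen, TRAB1 had -0.36. Thinning gave 12 ABA genes higher and 3 lower, and 1166 and 1047 of all 4574 genes. Genes lower numbered 3722 with unscaled totals and 1611 at adjusted p under 0.01. Relative to the TMM fit these totals moved the median gene by -0.31, upper-quartile factors by -0.27 and RLE factors by -0.14, and the share of calls that were higher went from 51.9% to 35.5, 37.4 and 44.3%.

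Leaving out 1 library at a time gave 2 factors higher throughout, 0 to 2 lower (0 without any 1 intact library, when 2 were tested, and 2 without digested replicate 2), 17 to 22 ABA genes higher and 4 to 6 lower, and 1942 to 2538 genes higher and 1734 to 2803 lower. The ranges were 1.87 to 2.12 for OsbZIP23, 1.52 to 1.93 for OsbZIP12, -7.35 to -2.89 for OsbZIP46, -3.11 to -0.95 for OsbZIP72 and -0.15 to 0.58 for TRAB1, where digested replicates 2 and 3 turn the sign (-0.11 and -0.15). Without digested replicate 2, OsbZIP46 has no digested count left and OsbZIP72 has 1. The OsABI5 share difference was -0.070 to 0.57 percentage points, negative without digested replicate 4. With the tested genes kept, a choice made after the filter was seen to drop 3 factors, each intact library left out gave 2 higher and 1 lower.

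The replicate numbers gave no sign of pairing (correlations of deviations -0.22, 0.05, -0.08 and -0.05 for the same number). Different numbers gave -0.08 to 0.16. With 4 libraries per group and few counts in the digested ones, this does not settle whether the samples were paired. A replicate block gave 2 factors higher and 1 lower, 20 and 5 ABA genes, and 2226 and 1954 of all genes, with OsbZIP46 at adjusted p = 0.0206 in edgeR. The causes were not tested. The 30 to 167 counts of the 6 factors in a digested library limit what can be said of OsbZIP46, OsbZIP72, TRAB1 and OsABI5.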
